A study of Mus musculus with 13 samples.

Results

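The circadian clock genes are described here as 10 genes of the count table, taken by symbol: the activators Arntl (also called Bmal1) and Clock, the period genes Per1, Per2 and Per3, the cryptochromes Cry1 and Cry2, the nuclear receptors Nr1d1 and Nr1d2, and the output factor Dbp. All 10 were found among the 24421 genes of the table, and all 10 passed the filter on low counts that left 16870 genes in the tumor comparisons. The lowest count of any of them in any library was 364, so counting error was small beside the differences between animals.

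RNA was sequenced from 11 mammary tumors and from the tumor-free mammary glands of 2 animals, all females of the MMTV-HER2/neu strain 202Mul/J on the FVB/N background, in which the mouse mammary tumor virus promoter drives rat HER2/Neu, a receptor tyrosine kinase oncogene, in mammary epithelium. All animals carry the transgene, the glands' donors included, although the labels give the genotype as wild type. The groups were 3 primary tumors from untreated mice, 3 primary tumors from mice given stavudine (STV, a nucleoside inhibitor of reverse transcriptase) at 1 mg/mL in drinking water from 2 months of age or from the appearance of tumors, 3 recurrent tumors that grew back after 17-DMAG (an HSP90 inhibitor, injected at 20 mg/kg 3 times per week), 2 recurrent tumors that grew back after 17-DMAG under STV, and the 2 glands from untreated mice. Every recurrent tumor had been exposed to 17-DMAG and no primary tumor had, so recurrence and 17-DMAG cannot be told apart. The hour of tissue collection and the age of each animal at collection were not given in the sources used here, so the part of collection time in the clock gene levels was not tested. Library totals ran from 39921388 to 56887708 counts. Whole tissue was used, so fewer cells expressing a gene and less RNA per cell cannot be told apart.

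The clock is a transcriptional loop that runs in nearly every mouse tissue, the mammary gland included. CLOCK (or its relative NPAS2) pairs with ARNTL and binds E-boxes to switch on the Per, Cry, Nr1d and Dbp genes. PER and CRY proteins then block that pair, while NR1D1 and NR1D2 repress Arntl, Clock and Npas2 by competing with the ROR receptors at ROR elements. Because of these delays the genes peak in a fixed order over the day: in mouse peripheral tissues Nr1d1 and Dbp peak in the light phase, the Per genes follow towards the dark phase, and Arntl and Npas2 peak near the end of the dark phase. In tissue taken at a single moment, high Arntl with low Dbp and Nr1d1 and the reverse pattern are opposite sides of that cycle.

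The clock genes differed between single tumors to unlike degrees, and mostly along 1 main axis. The median SD of their log2 levels over the tumors was 0.54, against 0.37 for all genes tested. Clock (0.22), Cry1 (0.28) and Cry2 (0.35) lay below the median of all genes. In 3 recurrent tumors (17-DMAG tumor 1 and both 17-DMAG with STV tumors) Arntl was at its highest and Dbp, Nr1d1, Nr1d2, Per2, Per3 and Cry2 were at their lowest of all 11 tumors. The 3 tumors were singled out by their Arntl level, so Arntl separates them from the other 8 by that choice. Leaving Arntl aside, 6 clock genes separate them, all lower. Among all genes tested, 9.53% separate the same 3 tumors from the other 8 in either direction. Of the other 2 recurrent tumors after 17-DMAG, tumor 2 lay within the range of the primary tumors for 9 clock genes (Clock was below it), and tumor 3 for 5, with Clock, Per1, Per2, Cry2 and Nr1d2 just below it. Dbp spanned the widest range, with its highest tumor 8.60-fold above its lowest, and Clock the narrowest at 1.62-fold. The first principal component of the 10 genes' log2 levels held 84.1% of their variance over the tumors, against 8.11% for the second, and placed those 3 tumors at scores of 1.91, 2.51 and 3.06, with the other 8 between -1.81 and 0.18. The genes were centred but not scaled, so Dbp weighed most (loading -0.61), and Clock (0.07) and Cry1 (0.11) weighed least. No share from other sets of genes is given beside it.

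**Figure D1:**
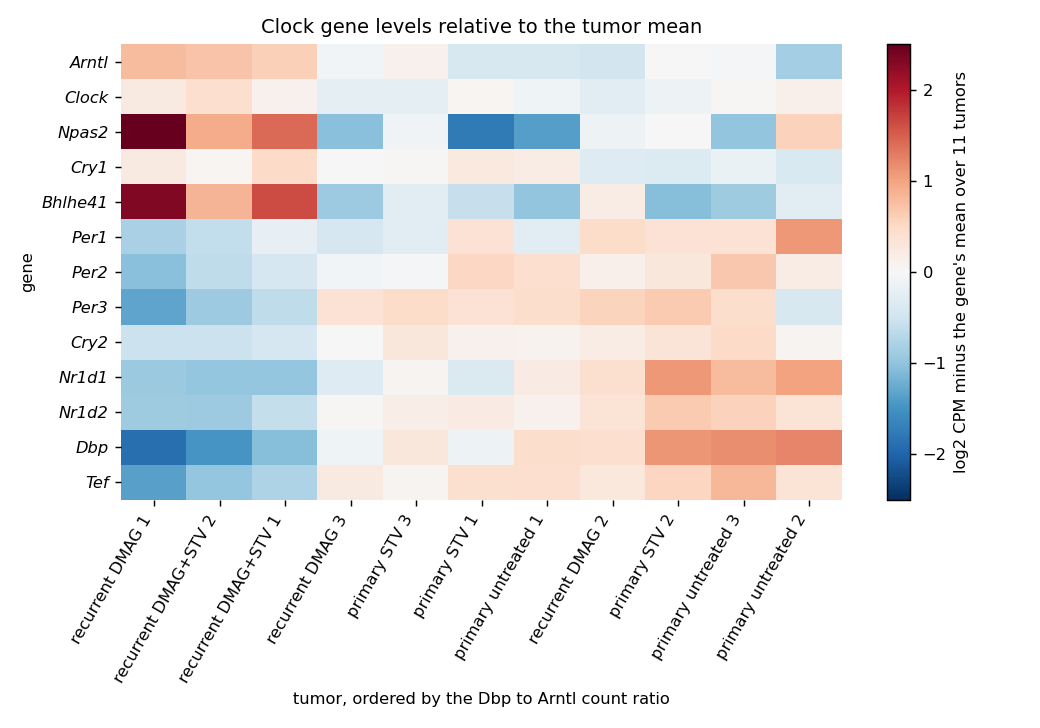
Levels of the 10 clock genes and of Npas2, Bhlhe41 and Tef in the 11 tumors, as log2 CPM (counts scaled to a common library size) minus the gene's mean over the tumors (colour scale), with tumors ordered along the x axis by the ratio of Dbp to Arntl counts. The 3 tumors on the left have high Arntl, Npas2 and Bhlhe41 and low Dbp, Nr1d1, Nr1d2, Per2, Per3, Cry2 and Tef, and 1 of them belongs to the same group as recurrent DMAG tumors 2 and 3 further right.

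Levels below are CPM scaled with TMM factors over all 13 libraries, and they are compared between libraries, not between genes. The activators come before the genes they switch on. Arntl, the partner without which the loop stops, stood at 10.1, 7.42 and 13 CPM in untreated primary tumors 1 to 3 and at 10.2, 13.5 and 14.3 CPM in primary STV tumors 1 to 3. In recurrent tumors 1 to 3 after 17-DMAG it stood at 23.2, 9.69 and 12.8 CPM, and in recurrent tumors 1 and 2 after 17-DMAG with STV at 20.1 and 21.8 CPM. The 17-DMAG group alone thus spanned 2.39-fold, with tumor 1 above every primary tumor and tumors 2 and 3 inside their range. The glands held 11.4 and 14.2 CPM, within the range of the primary tumors.

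Clock, which encodes the partner of ARNTL in most tissues, varied little. It was between 82.3 and 105 CPM in the 6 primary tumors, at 113, 79.2 and 82.1 CPM in recurrent tumors 1 to 3 after 17-DMAG, and at 104 and 129 CPM in the pair under STV. The 2 highest tumors were among the 3 with the highest Arntl, but the third of them lay within the primary range.

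The Arntl promoter is shown because NR1D1, NR1D2 and the ROR receptors act on Arntl through ROR elements. Promoters were 300-base windows from RefSeq (GRCm38.p6), running from 250 bases before a gene's start to 50 after it, and 9 of the 10 clock genes had at least 1 window. The motif TAGGTCA, read on both strands, occurred in 2.61% of all 32851 windows. In Arntl (GENCODE M21, GRCm38 chromosome 7, 113207465 to 113314126, plus strand) it began at base 31 after the start in 1 of 2 RefSeq windows, inside the exon that opens the gene. The stretch at chr7:113207530-113207559, plus strand, has the motif in capitals:
Arntl: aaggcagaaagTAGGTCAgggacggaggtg

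Nr1d1 and Nr1d2 encode REV-ERB alpha and beta, the heme-binding receptors that repress Arntl. Nr1d1 stood at 62.3, 108 and 92.7 CPM in untreated primary tumors 1 to 3 and at 41.7, 113 and 56.4 CPM in primary STV tumors 1 to 3. In recurrent tumors after 17-DMAG it was at 28.4, 70.6 and 42.8 CPM, and under STV at 27.4 and 27.6 CPM. The 3 tumors with high Arntl were thus the 3 lowest for Nr1d1, and nearly level with each other, while primary tumors alone differed by up to 2.71-fold within a group.

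Nr1d2 was also lowest in those 3 tumors, with less spread over all 11 (2.93-fold against 4.13-fold for Nr1d1). It was at 214, 249 and 293 CPM in untreated primary tumors, 228, 309 and 222 CPM in primary STV tumors, 107, 250 and 200 CPM in recurrent tumors after 17-DMAG, and 130 and 105 CPM in those under STV. Nr1d1 shares 8.55% of its exon bases with Thra, a thyroid hormone receptor gene on the opposite strand, and the strand setting of the counting was not given in the sources used here. Thra ranged over the tumors from 20.0 to 38.5 CPM and was at 20.0, 29.7 and 33.2 CPM in the 3 tumors with low Nr1d1, so it overlapped the other tumors.

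Dbp encodes a PAR bZIP factor that binds D-boxes and drives clock output genes, and it is among the most strongly cycling transcripts of mouse tissues. It stood at 65.9, 113 and 109 CPM in untreated primary tumors 1 to 3, and at 44.2, 104 and 58.9 CPM in primary STV tumors 1 to 3. In recurrent tumors 1 to 3 after 17-DMAG it was at 13.2, 64.4 and 44.6 CPM, a 4.89-fold span within the group. Under STV it was at 23.1 and 17.4 CPM, below each of the 6 primary tumors. Dbp shares 18.0% of its exon bases with Sphk2, a sphingosine kinase gene on the opposite strand, whose level ran only from 41.0 to 54.4 CPM over the tumors.

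The period genes, whose proteins form the repressor complex with the cryptochromes, did not move as a block. Per2 was at 111, 93.2 and 132 CPM in untreated primary tumors, 118, 100 and 80.0 CPM in primary STV tumors, 39.9, 89.6 and 78.7 CPM in recurrent tumors after 17-DMAG, and 61.4 and 53.1 CPM under STV. Per3 was at 190, 107 and 191 CPM in untreated primary tumors, 182, 220 and 194 CPM in primary STV tumors, 56.7, 206 and 181 CPM after 17-DMAG, and 91.3 and 75.5 CPM under STV. For Per2 and Per3 the same 3 recurrent tumors were the lowest of the 11.

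Untreated primary tumor 2 departed from the other primary tumors for the period genes. It had the highest Per1 of all tumors at 228 CPM, where the other 5 primary tumors lay between 88.3 and 139 CPM, and it had the lowest Per3 of the primary tumors. It also had the lowest Arntl and the highest Dbp. Per1 overlapped between groups elsewhere, at 61.0, 148 and 80.1 CPM in recurrent tumors after 17-DMAG and 92.8 and 70.3 CPM under STV. Per1 is also induced by glucocorticoids. Over a list of 6 glucocorticoid-induced genes the mean log2 level of untreated primary tumor 2 was 6.48, against 5.52 to 6.40 in the other 10. That list includes Per1, so the tumor's own Per1 level raises its mean. Its first rank by that mean is therefore no separate measure of the other genes of the list. The part of that list in the tumor's Per1 level was not tested.

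Per3 and Per1 carry different motifs near their starts, and are shown because they parted company in that tumor. The D-box TTATGTAA, bound by DBP and its relatives, occurred in 0.938% of all windows on either strand, and Per3 (chromosome 4, 151003652 to 151044665, minus strand) held it at positions -205 and -158, where -1 is the base before the start. The stretch lies before the gene. The E-box CACGTG, the same on both strands, occurred in 7.15% of windows, and Per1 (chromosome 11, 69095217 to 69109960, plus strand) held it at position -166 of 1 of its 2 windows, inside an intron of a longer Per1 transcript. The motifs do not overlap each other and stand in capitals, at chr4:151044796-151044890, minus strand, and chr11:69098763-69098808, plus strand:
Per3: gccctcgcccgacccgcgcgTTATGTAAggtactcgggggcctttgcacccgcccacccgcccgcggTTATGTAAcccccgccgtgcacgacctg
Per1: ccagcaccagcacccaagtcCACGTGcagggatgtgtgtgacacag

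The cryptochromes, flavoproteins that complete the repressor complex, went in different directions. Cry2 was at 72.1, 70.5 and 93.6 CPM in untreated primary tumors, 72.8, 85.1 and 82.1 CPM in primary STV tumors, 46.3, 77.3 and 66.8 CPM in recurrent tumors after 17-DMAG, and 50.3 and 46.4 CPM under STV, so the 3 tumors with high Arntl were again the lowest. Cry1, which peaks late in the cycle, ranged only from 11 to 19.9 CPM over the tumors, and the 3 tumors with high Arntl, at 16.8, 19.9 and 14.8 CPM, overlapped the other 8. The Cry1 promoter (chromosome 10, 85131700 to 85185064, minus strand) held an E-box at position -60, shown because Cry1, also a target of the activator pair, was not among the genes that were lowest in those tumors. The stretch at chr10:85185089-85185134, minus strand, has it in capitals:
Cry1: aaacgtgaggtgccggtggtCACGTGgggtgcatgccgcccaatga

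Of the clock genes with a window, 4 held at least 1 of these 3 motifs within it. The windows of Clock, Cry2, Nr1d1, Nr1d2 and Dbp held none of the 3, which says only that these letters are not in the windows.

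**Figure D2:**
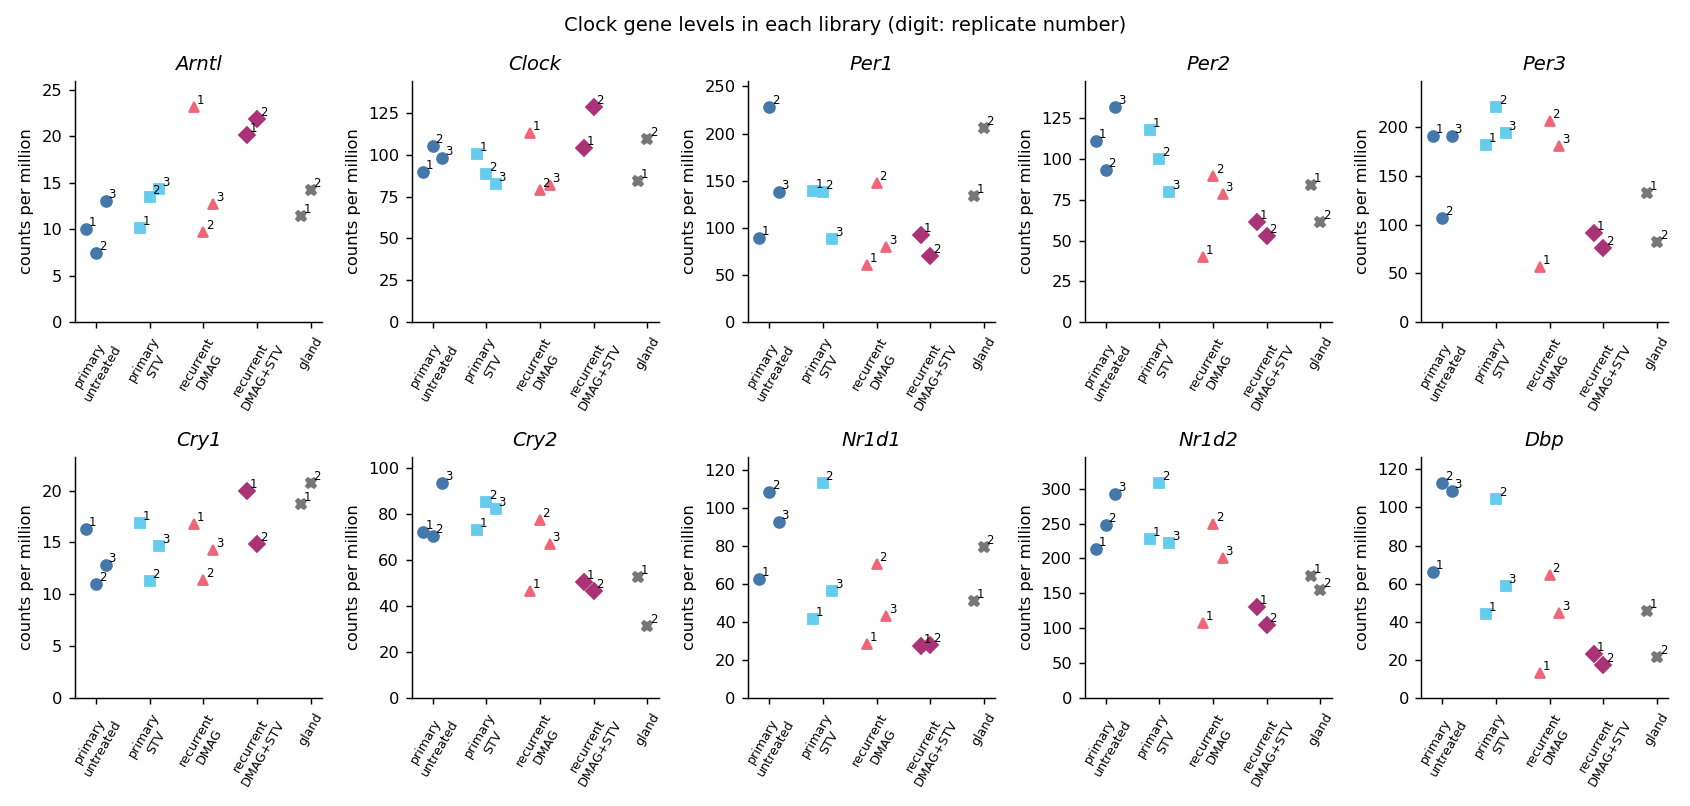
Level of each clock gene in each of the 13 libraries, in CPM on linear axes that start at 0, with 1 point per library, the groups along the x axis and the replicate number beside each point. Dbp, Nr1d1, Nr1d2, Per2, Per3 and Cry2 are, among the 11 tumors, lowest in recurrent DMAG tumor 1 and the 2 recurrent DMAG+STV tumors, while recurrent DMAG tumors 2 and 3 are higher for all 6, with tumor 3 below every primary tumor for Nr1d2, Per2 and Cry2.

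A ratio of 2 genes' counts within a library needs no scaling between libraries. The log2 ratio of Dbp to Arntl counts was 2.71, 3.93 and 3.06 in untreated primary tumors 1 to 3 and 2.12, 2.95 and 2.04 in primary STV tumors 1 to 3. It was -0.82, 2.73 and 1.80 in recurrent tumors after 17-DMAG and 0.20 and -0.33 in those under STV. The 17-DMAG group thus held the lowest tumor of all beside 1 that was higher than 3 of the 6 primary tumors. The highest and the lowest tumor differed by 4.75 on the log2 scale. The pooled SD within groups was 1.08, but a range over all tumors and an SD are unlike measures, so neither is a background for the other. The glands were at 2.0 and 0.60, and gland 2 drew 26.5% of its counts from 5 milk protein genes.

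**Figure D3:**
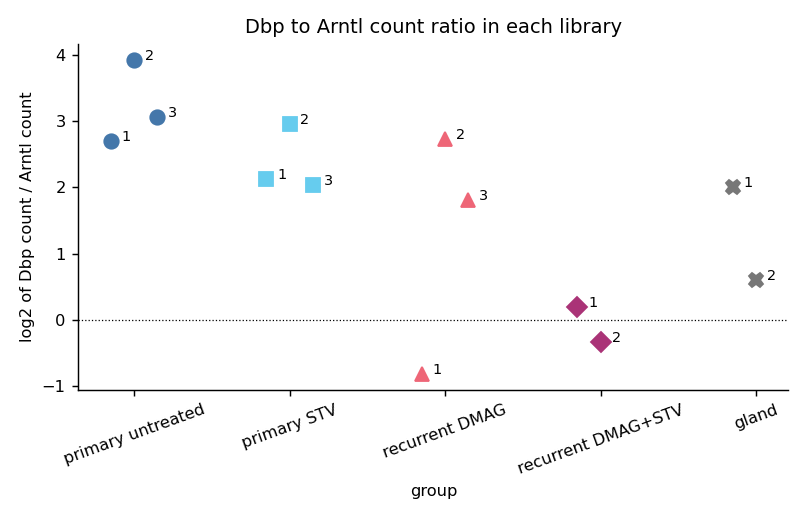
log2 ratio of Dbp counts to Arntl counts (y axis) in each library by group (x axis), with the replicate number beside each point and the dotted line at equal counts. Recurrent DMAG tumor 1 and both recurrent DMAG+STV tumors lie between -0.82 and 0.20, and the other 8 tumors between 1.80 and 3.93.

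The next question was whether these patterns follow the treatment groups. No clock gene was called in any of the 8 comparisons or in the interaction of recurrence and STV at an adjusted p under 0.05 (edgeR's quasi-likelihood test, Benjamini-Hochberg over all genes). As background, 0% of the 16870 genes were called in each of the comparisons between tumors, and 10.4% of 17135 genes between tumors and glands. Counts at an unadjusted p under 0.05 are therefore given with the share of all genes that reached it.

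Between the 4 tumor groups, 5 of the 10 clock genes had an unadjusted p under 0.05 (Per2, Cry2, Nr1d1, Nr1d2 and Dbp), against 8.54% of all genes, and their adjusted p was at least 0.534. DESeq2, which estimates each gene's spread differently, called Dbp alone (adjusted p = 0.045), against 3.33% of genes, and limma voom called 0. Groups accounted for a median of 56.4% of the variance of the clock genes' log2 levels and 34.6% for all genes tested. The share was 67.0% for Cry2, 64.3% for Dbp and 23.9% for Cry1. Without recurrent tumor 1 after 17-DMAG the median for the clock genes was 76.1%. The median of all genes without that tumor is not given here, so 34.6% is no background for this value.

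Recurrent tumors as a whole (5 against 6 primary tumors) had 7 clock genes at an unadjusted p under 0.05, of which 6 were lower and Arntl higher, against 13.6% of all genes. Dbp differed by -1.51 ± 0.40 (log2 fold change ± SE), Nr1d1 by -1.13 ± 0.32, Nr1d2 by -0.78 ± 0.21 and Per2 by -0.75 ± 0.21. Per3 differed by -0.70 ± 0.31, Cry2 by -0.53 ± 0.14 and Arntl by 0.65 ± 0.24, while Clock (0.13 ± 0.12), Cry1 (0.18 ± 0.17) and Per1 (-0.63 ± 0.30) did not reach that mark. The median over the clock genes was -0.66, and over all genes it was 0.00.

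By edgeR the adjusted p-values in that comparison lay between 0.287 and 0.645, so none of the 10 was called. DESeq2 called 5 of them (Dbp with adjusted p = 0.012, Nr1d1 0.025, Nr1d2 0.033, Cry2 0.041 and Per2 0.044), against 2.5% of genes, and limma voom called 0. For Dbp the adjusted p ran from 0.012 to 0.623 over the alternatives, with a log2 fold change between -1.74 and -1.29 when any 1 tumor was left out. None of the 10 clock genes separated all recurrent from all primary tumors, against 1.34% of genes that did.

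Within the animals on plain water (3 recurrent tumors after 17-DMAG against 3 untreated primary tumors), Per2 (-0.71 ± 0.28) and Dbp (-1.26 ± 0.52) had an unadjusted p under 0.05, against 9.69% of genes, with an adjusted p of 0.509 each by edgeR. DESeq2 and limma voom called 0 clock genes. The same 2 genes were the ones whose groups did not overlap, against 15.1% of genes. Under STV (2 recurrent against 3 primary tumors), 6 clock genes had an unadjusted p under 0.05, all lower in the recurrent tumors, against 10.1% of genes. They were Dbp (-1.77 ± 0.61), Nr1d1 (-1.35 ± 0.48), Per3 (-1.25 ± 0.47), Nr1d2 (-1.10 ± 0.32), Per2 (-0.79 ± 0.32) and Cry2 (-0.72 ± 0.21). Adjusted p-values by edgeR were 0.336 or more, DESeq2 called Nr1d2 alone (adjusted p = 0.048), against 2.1% of genes, and limma voom called 0. The groups did not overlap for 8 of the 10 clock genes, 6 of them lower in the recurrent tumors and Arntl and Clock higher, against 35.3% of all genes.

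The recurrence difference was not shown to depend on STV. The interaction had 0 clock genes at an unadjusted p under 0.05, against 7.84% of genes, and by DESeq2 and limma voom 0 were called. Its largest estimate was for Per3 at -1.10 ± 0.61, with an adjusted p of 0.705 by edgeR.

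STV itself went with no call among the clock genes. Over all tumors (5 with STV against 6 without) 0 had an unadjusted p under 0.05, against 4.71% of genes, and the estimates ran from -0.74 ± 0.39 for Dbp to 0.38 ± 0.24 for Arntl, with an adjusted p of 0.993 each by edgeR. In primary tumors 0 had an unadjusted p under 0.05, against 3.76% of genes, and Dbp differed by -0.48 ± 0.51 and Arntl by 0.30 ± 0.32. No clock gene separated the STV from the untreated primary tumors, against 10.8% of genes. In recurrent tumors 0 had an unadjusted p under 0.05, against 7.84% of genes, and Dbp differed by -1.0 ± 0.59. Nr1d1 was the single clock gene whose recurrent groups did not overlap, with 27.4 and 27.6 CPM under STV below 28.4 CPM in the lowest tumor without it, against 21.5% of genes. In each of these 3 comparisons DESeq2 and limma voom called 0 clock genes.

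Between tumors and glands edgeR called 0 clock genes. With 2 glands the estimates were imprecise, as for Per1 (-0.63 ± 0.36) and Dbp (0.52 ± 0.52), so a small difference was not shown either. Cry2 was the single member with an unadjusted p under 0.05, against 29.6% of genes, at 46.3 to 93.6 CPM in the tumors and 52.6 and 31.2 CPM in the glands (0.66 ± 0.23, adjusted p = 0.085 by edgeR). DESeq2 called it (adjusted p = 0.039), against 19.1% of genes, and limma voom called 0. Without gland 1, which left 1 gland, its log2 fold change was 1.13. Without recurrent tumor 1 after 17-DMAG it was 0.70, with an adjusted p of 0.036 by edgeR. That fit called 3100 genes in all, against 1785 with all 13 libraries, so the call of Cry2 came with a general rise in calls. No clock gene separated tumors from glands, against 11.5% of genes. In glands 1 and 2 Dbp was at 45.7 and 21.6 CPM and Nr1d1 at 51.1 and 79.2 CPM. On these scaled levels the 2 genes ranked the glands in opposite order. Before scaling, gland 2 had fewer counts than gland 1 for both, 605 against 2263 for Dbp and 2219 against 2529 for Nr1d1. The library total of gland 2 was the larger, so the opposite order rests on the TMM scaling of the glands.

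**Figure D4:**
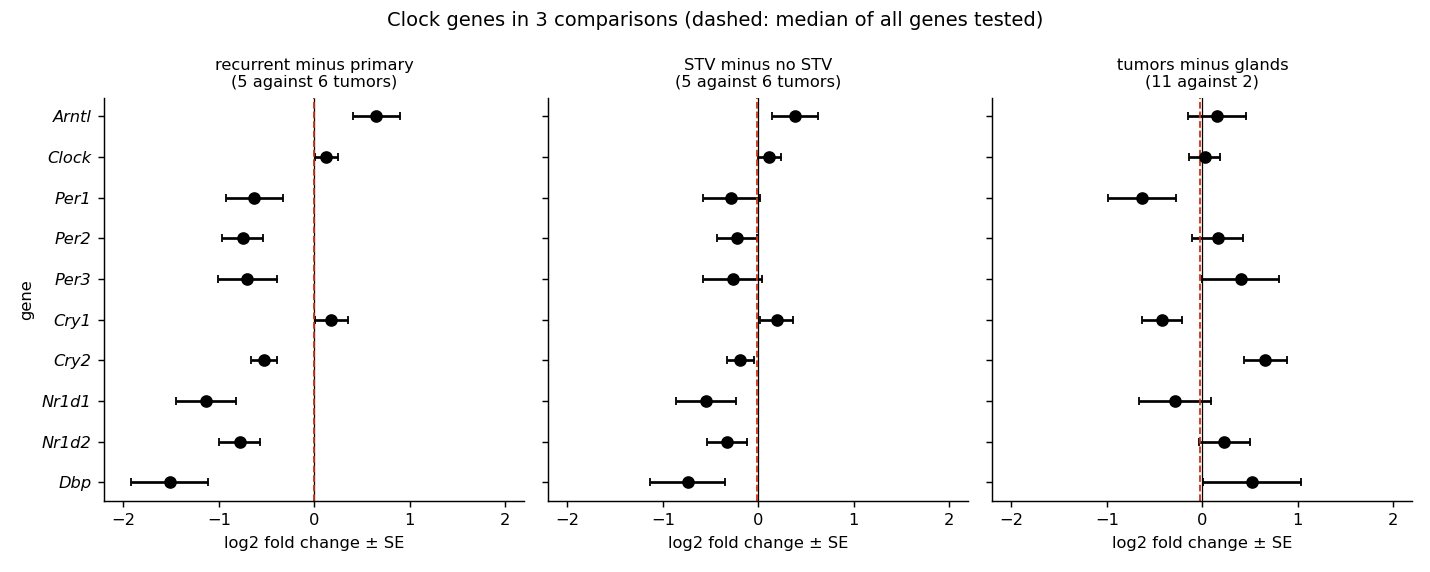
log2 fold change of each clock gene (points) with its SE (bars) from edgeR in 3 comparisons, with the median over all genes tested as a dashed line. In recurrent against primary tumors 7 of the 10 genes are below 0, from -1.51 for Dbp to -0.53 for Cry2, while in tumors against glands the signs are mixed.

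The relations among the clock genes were then followed over the 11 tumors, on log2 CPM scaled over the tumors alone. Dbp and Arntl ran in opposite directions (Pearson r = -0.81, permutation p = 0.0034, adjusted p over all genes 0.124, Spearman rho = -0.70, permutation p = 0.021, adjusted p 0.532, two-sided). The adjustment depends on the reference gene: among the r of all genes with Arntl 0% passed an adjusted p of 0.05, whereas among those with Dbp 13.4% of 16869 genes did, and there the same pair had an adjusted p of 0.036. Per1, Per2, Per3, Cry2, Nr1d1 and Nr1d2 also passed with Dbp (r from 0.78 to 0.96, permutation test, adjusted p 0.047 or less). Leaving out the 2 tumors farthest from the median of Arntl gave r = -0.67, and centring each group on its mean gave r = -0.61 (exact permutation within groups, p = 0.259). The widest gap along the Arntl axis, 0.50 of a range of 1.62 log2 units, lay just below the 3 tumors with high Arntl. Within the other 8 tumors r was -0.15 (exact permutation p = 0.728), but leaving out the highest Arntl levels narrows the range of Arntl, so whether the relation rests on those 3 tumors cannot be told apart from that choice.

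Nr1d1 and Dbp varied together below that gap. Within the 8 tumors their r was 0.98 (exact permutation p = 0.00047, adjusted p over all genes 0.112) and rho was 0.90 (exact permutation p = 0.0046, adjusted p 0.278), and 0.0237% of the 16869 genes had an r with Dbp at or above it. In the 3 tumors above the gap both were low, but Nr1d1 was nearly level where Dbp ran from 13.2 to 23.1 CPM. The 8 tumors comprise the 6 primary tumors and 2 recurrent tumors without STV. Among them Dbp and Nr1d1 were low together in primary STV tumor 1 (44.2 and 41.7 CPM) and recurrent tumor 3 after 17-DMAG (44.6 and 42.8 CPM). Both were high in untreated primary tumors 2 (113 and 108 CPM) and 3 (109 and 92.7 CPM) and in primary STV tumor 2 (104 and 113 CPM). Nr1d2 had an r of 0.81 with Dbp in those tumors, Cry1 an r of -0.70 and Per1 an r of 0.64, with adjusted p-values by the exact permutation test of 0.206 or more. Per3 had an r of 0.78 with Dbp over all 11 tumors and of -0.30 in the 8 (exact permutation p = 0.582, rho = 0.048). Without untreated primary tumor 2, which had the highest Dbp and the lowest Per3 of the 8, r was 0.70 in the other 7 (exact permutation p = 0.080, a value added after seeing the data), so the negative sign rests on that tumor. In this family each reference gene was related to every other gene tested, and in the 8 tumors 0 genes had an adjusted p under 0.05 with either reference gene.

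**Figure D5:**
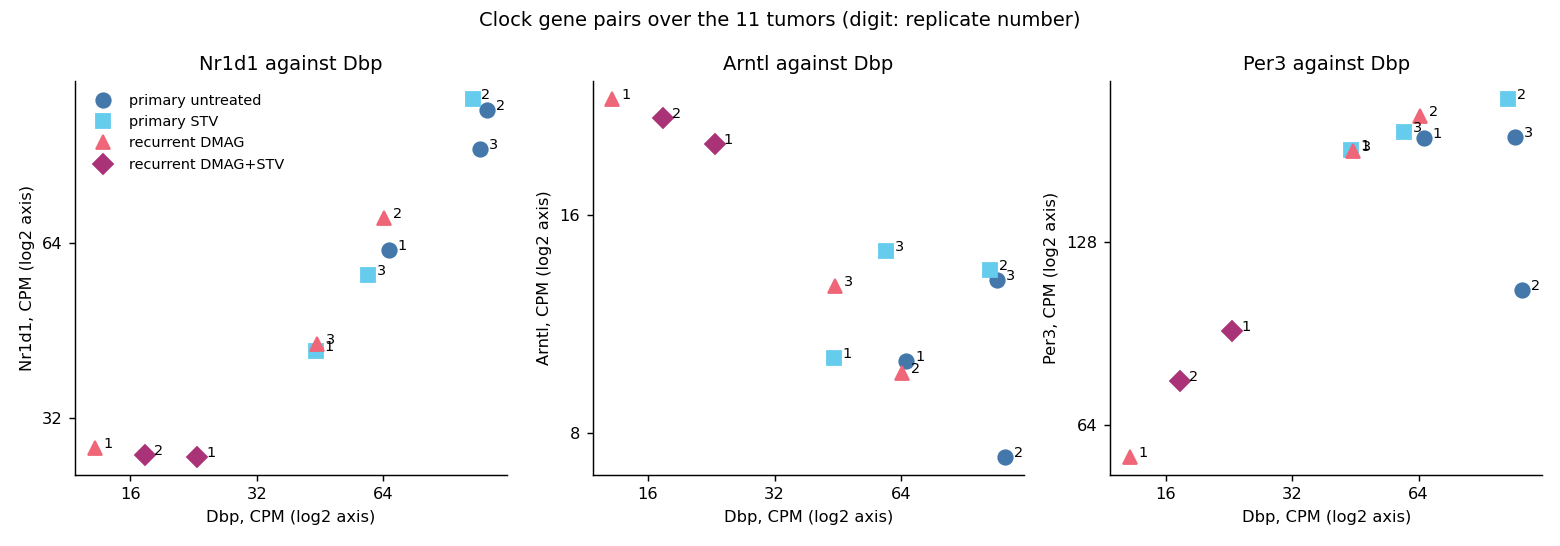
Nr1d1, Arntl and Per3 (y axes) against Dbp (x axes) in the 11 tumors, all in CPM on log2 axes, with 1 point per tumor, coloured by group and numbered by replicate. Nr1d1 tracks Dbp among the 8 tumors with Dbp at 44.2 CPM or more, Arntl has an r of -0.15 with Dbp among them, and Per3 is low in untreated primary tumor 2 at the far right of the range.

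As a measure of likeness with no test, the 12757 genes whose log2 CPM averaged 1 or more over the 11 tumors were ranked by r with Dbp. Nr1d2 ranked 3, Rora (a ROR receptor that competes with the NR1D proteins) ranked 7, Nr1d1 ranked 8, Tef (a PAR bZIP relative of Dbp) ranked 25 and Cry2 ranked 54. The genes outside the clock genes with the highest r were 6430573F11Rik (0.98), Gm10785, Rsad1 and Gm10863 (0.96 each), and those with the lowest were Ccdc126 (-0.97), Stip1, an HSP90 co-chaperone (-0.95), Cdk14 (-0.95) and Gpsm3 (-0.95). With Arntl the highest were Dock10 (0.93), Rhbdl2, Themis2 (0.91 each) and Itga4, an integrin subunit of leukocytes (0.90), and the lowest were Mpzl2 (-0.92), Dph3, Agpat3 and Atf6 (-0.91 each). All of these values include the 3 tumors that stood apart.

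Among 19 further clock genes, the 3 with the largest r in size with Arntl over the tumors were Tef (-0.82), Fbxl21 (-0.75) and Bhlhe41 (0.71). Tef stood at 59.2, 88.6 and 77.5 CPM in the 3 tumors with high Arntl and at 159 to 266 CPM in the other 8. Bhlhe41, which encodes the E-box repressor DEC2, stood at 145, 90.4 and 52.4 CPM there and at 14.0 to 33.1 CPM in the other 8. Of the 19, Npas2 and Bhlhe41 were higher, and Rora, Tef and Fbxl21 lower, in those 3 tumors than in each of the other 8, 26.3% of the list against 9.53% of all genes tested. Fbxl21 rests on few reads, with 10, 44 and 12 counts in those 3 tumors and 50 to 91 in the other 8. Npas2, the alternative partner of ARNTL and itself a target of NR1D1, was at 18.3, 8.72 and 6.24 CPM there and at 0.97 to 4.87 CPM in the other 8. The 3 tumors were chosen by their Arntl level, so these counts are descriptions.

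None of the 19 was called between tumor groups by edgeR or limma voom. DESeq2 called Ciart between the 4 groups (adjusted p = 0.00064), against 3.33% of genes. On plain water DESeq2 called Ciart (adjusted p = 0.011), among 61 genes called in all. Between recurrent and primary tumors DESeq2 called Ciart (adjusted p = 0.00026), Bhlhe41 (0.014) and Tef (0.037), against 2.5% of genes. Ciart was at 3.17 to 4.28 CPM in the 5 recurrent tumors and at 5.23 to 9.03 CPM in the 6 primary tumors. It thus separated them, as 1.34% of all genes did. By edgeR, 6 of the 19 had an unadjusted p under 0.05 between the 4 groups, against 8.54% of all genes. Between recurrent and primary tumors 6 did (2 higher and 4 lower), against 13.6% of all genes. The list medians were -0.02 for recurrent against primary and -0.11 for STV against none. Between tumors and glands 2 of the 19 were called, a share close to the 10.4% of all genes: Bhlhe40, the E-box repressor DEC1, was higher in tumors (1.18 ± 0.24, adjusted p = 0.015 by edgeR), and Nampt, the NAD salvage enzyme, was lower (-1.13 ± 0.25, adjusted p = 0.021 by edgeR). Nampt was at 61.0 to 89.2 CPM in the tumors and at 90.4 and 244 CPM in the glands, and without gland 2 its difference was -0.16 with an adjusted p of 0.749. Bhlhe40 without gland 2 differed by 1.06 with an adjusted p of 0.128, and with the replicate block its adjusted p was 0.053 and that of Nampt 0.087.

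Other transcripts moved with the clock pattern in the same 3 tumors, which 9.53% of all genes tested separate from the other 8 in either direction. Of 6 heat shock genes, Hsp90aa1 and Hspb1 were higher in all 3 than in each of the other 8 tumors, and the summed level of the list was 488 to 540 CPM there and 320 to 426 CPM elsewhere. Of 7 leukocyte markers, Ptprc, Laptm5, Tyrobp and Adgre1 were higher in all 3, while Cd52, Cd3e and Cd79a overlapped. The list summed to 94.7 to 190 CPM against 61.6 to 78.2 CPM, with no marker at 0 in any tumor. Its mean log2 level, which weighs each marker alike, overlapped, at 2.51 to 3.44 against 2.16 to 2.53. Of 5 fibroblast markers, Col1a1 and Col3a1 were higher in all 3, while Dcn, Lum and Pdgfra overlapped. The list summed to 1001 to 4297 CPM against 165 to 692 CPM, with Lum at 0 in 1 of the 8. Its mean log2 level overlapped, at 6.03 to 8.33 against 2.27 to 6.17. The part of these transcripts in the clock gene levels was not tested.

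Luminal epithelial markers, which check the labelled tissue, were present in every tumor at a sum of 6360 to 15122 CPM in the 3 tumors and 10625 to 21672 CPM in the other 8, and of 6 markers Epcam was lower in all 3. Proliferation genes (176 to 840 CPM against 508 to 801 CPM), immediate early genes (165 to 323 CPM against 158 to 348 CPM), milk protein genes (4436 to 19698 CPM against 6584 to 16272 CPM), adipocyte markers (25.6 to 115 CPM against 5.40 to 107 CPM), and skeletal muscle genes (24.1 to 5310 CPM against 15.8 to 4067 CPM) overlapped between the 3 and the other 8. The muscle markers Myh4, Myh1 and Tnnt3 and the adipocyte markers Adipoq, Plin1, Cidec and Lep were at 0 in at least 1 tumor. Leaving out the 3 tumors with over 0.1% of counts from muscle genes, a choice made after seeing the data, also gave 0 called clock genes in each of the 8 comparisons.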

How the data were processed

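RNA-seq was run on 13 libraries. Per the labels, rRNA-depleted libraries were prepared with dUTP marking of the second strand, and the authors' processing notes name bcl2fastq 2.20, STAR, and featureCounts from Subread 1.6.2 on mm10. The deposited values are raw counts per gene, and the strand setting was not given in the sources used here. Groups came from the sample titles. Genes with low counts were removed (edgeR 4.0.16 filterByExpr) and libraries scaled by TMM. Comparisons used edgeR's quasi-likelihood test on the 11 tumors, and on all 13 libraries for tumors against glands, with Benjamini-Hochberg adjustment over all genes. Correlations over tumors used permutations (100000, or all 40320 and 362880 orders of 8 and 9 tumors). Alternatives were DESeq2 1.42.0, limma 3.58.1 voom, RLE factors, no filter, no milk, muscle or adipocyte genes, a replicate block, and leaving out each library. Fits and correlations were first tested on simulated data. The labels give no separate source for replicates beyond individual tumors and glands, so p-values measure the spread between these animals' samples. No 2 libraries held identical values. Levels named are all 10 clock genes, with other genes chosen by fixed rules (calls, or the 4 largest correlations, of which 1 is not reported here). The clock genes and all lists were chosen with earlier results of these data known. Library totals of 39921388 to 56887708 gave every clock gene at least 364 counts.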

Additional observations from a re-analysis of the deposited data

How the results depend on the processing

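The counts of clock genes called were 0 under limma voom, RLE factors, no filter, and removal of milk, muscle and adipocyte genes. In the main fit 0% of all genes were called between tumors, so a 0 there is no result about the clock genes. DESeq2 gave 1 between the 4 tumor groups, 5 for recurrent against primary tumors, 1 for the same under STV and 1 for tumors against glands, and 0 in the other 4 comparisons. Leaving out a library gave 0 wherever at least 2 stayed in every group, except for tumors against glands without recurrent tumor 1 after 17-DMAG. There the count was 1 (Cry2), among 3100 genes called in all, against 1785 with every library. Where 1 was left in an arm, it was assumed to vary like the other groups, and no count is given. Same-numbered samples were not seen to deviate together (2 of 15 pairs had a correlation over 0.1, from -0.30 to 0.22). With 2 or 3 tumors a group this check is weak, so it cannot exclude that the numbers pair samples. With the replicate block the count was 0 in every comparison. Directions reversed for small differences. Against glands, Clock turned to -0.00083 with DESeq2, -0.0012 with RLE factors, -0.12 without gland 1, -0.024 without recurrent tumor 1 after 17-DMAG and -0.012 without recurrent tumor 2 under STV. Set against untreated primary tumors alone, Arntl was -0.33 and Nr1d1 0.43, and the values without either gland ran from -0.54 to 0.14 for Nr1d1 and from -0.12 to 0.31 for Clock. For STV against none, Clock was -0.018 without muscle-rich tumors. Within the 8 tumors the r of Arntl reversed with Clock (-0.46), Per3 (0.73), Cry2 (0.52) and Nr1d2 (0.11). The r of Arntl with Dbp ran from -0.86 to -0.73 when any 1 tumor was left out. The range of the log2 ratio over the tumors, 4.75 for Dbp to Arntl, was 3.33 for Dbp to Clock, 6.51 for Dbp to Npas2, 3.58 for Nr1d1, 2.86 for Nr1d2 and 3.12 for Per3 to Arntl, and 3.88 to 4.75 when any 1 tumor was left out. The clock genes' median share of variance between groups ran from 45.7% to 76.1% in the same way, with no value for all genes beside it. With 2 or 3 tumors a group, small differences were not detectable; the cause of the difference between edgeR and DESeq2 was not tested.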
